A study of Mus musculus with 9 samples.

Results

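Cells store surplus fatty acids as triglyceride in lipid droplets, and 10 genes of this store were examined in the mouse ventricle: Fitm1, Fitm2, Plin2, Plin3, Plin4, Plin5, Dgat1, Dgat2, Pnpla2 and Lpl. They were picked by name from the 38293 genes of a raw count table, with the fall of Fitm2 between the genotypes already known, and all 10 were among the 15318 genes with enough counts to test. The table holds RNA sequencing of ventricles at postnatal day 7 from 5 Arid1a f/f control animals, which carry the floxed alleles without Cre, and 4 aMHC-Cre;Arid1a f/f animals (cKO). In these the aMHC promoter, active in cardiomyocytes, drives the Cre that deletes Arid1a, whose protein is part of the SWI/SNF chromatin remodeller. The controls were littermates on a C57BL/6J background, pups of both sexes were used, and no group carried Cre without the floxed alleles. Each library is a whole ventricle, so the other cell types kept their Arid1a, and for every gene below fewer cells of a type and less RNA per cell cannot be told apart.

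Triglyceride is finished by the diacylglycerol acyltransferases (Dgat1, Dgat2) in the endoplasmic reticulum. The fat storage-inducing transmembrane proteins (Fitm1, Fitm2) sit in that membrane and are needed for the new triglyceride to leave it as droplets, and perilipins (Plin genes) then coat the droplet and control access to it. Adipose triglyceride lipase (Pnpla2) takes the first fatty acid off the stored triglyceride, and lipoprotein lipase (Lpl) frees fatty acids from circulating lipoproteins for uptake. The heart after birth draws most of its energy from fatty acids.

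The libraries held 31011055 to 40073801 counts. Arid1a itself stood at 128 to 148 CPM (counts scaled to a library total of 1e6) in the controls and at 100.3 to 113 in the cKO libraries, with no overlap (log2 fold change -0.39, edgeR quasi-likelihood adjusted p = 0.00132). The libraries also fell into 2 sets that the labels do not name. Rps3a3, a processed pseudogene of a ribosomal protein gene, had 0.345 to 0.521 CPM in 5 libraries (controls 1 and 2, cKO 1, 2 and 3) and 99.7 to 112 CPM in the other 4 (controls 3, 4 and 5, cKO 4). These are called the Rps3a3-low and Rps3a3-high libraries, and values that move with them are given beside each gene. The ribosomal protein gene Rps3a1 went the other way, at 253 to 276 CPM in the low and 70.8 to 75.7 CPM in the high libraries. The origin of the sets, technical or biological, was not tested. The high set holds 1 cKO library, so its genotype difference rests on that library.

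The DNA upstream of the 4 members that differed most clearly between the genotypes is shown first, since it lies directly before the RefSeq start site of each. For 7 of the 10 members (Fitm1, Fitm2, Plin2, Plin3, Plin4, Plin5 and Pnpla2) the RefSeq promoter table on GRCm38.p6 held an entry, and the 250 bases before the start site are printed 5′ to 3′ on the gene's strand, with capitals marking the motif matches named after them. All 4 lie on the minus strand: Fitm2 at chr2:163472630-163472879, Plin4 at chr17:56109783-56110032, Plin2 at chr4:86670060-86670309 and Plin3 at chr17:56290512-56290761. The RefSeq start site is 0 to 21 bases from the outermost GENCODE start of Fitm2, Plin2 and Plin4, while that of Plin3 lies 2362 bases inside the GENCODE gene given below, so its stretch is within that locus.
Fitm2: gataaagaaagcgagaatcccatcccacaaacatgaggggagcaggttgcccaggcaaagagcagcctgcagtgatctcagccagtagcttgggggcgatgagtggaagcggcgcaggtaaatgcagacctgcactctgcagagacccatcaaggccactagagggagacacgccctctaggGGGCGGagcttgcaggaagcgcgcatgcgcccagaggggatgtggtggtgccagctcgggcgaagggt
Plin4: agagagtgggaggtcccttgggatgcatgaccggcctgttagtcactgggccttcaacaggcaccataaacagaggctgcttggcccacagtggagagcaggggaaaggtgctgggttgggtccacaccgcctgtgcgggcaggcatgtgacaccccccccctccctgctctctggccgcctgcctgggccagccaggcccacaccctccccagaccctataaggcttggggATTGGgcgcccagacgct
Plin2: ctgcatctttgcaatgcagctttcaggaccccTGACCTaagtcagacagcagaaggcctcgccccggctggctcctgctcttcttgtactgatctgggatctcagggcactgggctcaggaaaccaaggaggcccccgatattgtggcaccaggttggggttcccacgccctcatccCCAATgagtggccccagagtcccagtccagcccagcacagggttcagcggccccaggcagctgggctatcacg
Plin3: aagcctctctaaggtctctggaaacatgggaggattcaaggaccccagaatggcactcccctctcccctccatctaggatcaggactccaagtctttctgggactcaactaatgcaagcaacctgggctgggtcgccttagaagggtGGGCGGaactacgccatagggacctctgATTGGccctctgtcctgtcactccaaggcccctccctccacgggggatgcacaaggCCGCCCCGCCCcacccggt

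The Fitm2 stretch held 11 CpG dinucleotides and 1 GC box (GGGCGG, first base at -68 from the start). The Plin4 stretch held 6 CpG and 1 CCAAT box (CCAAT, read on the other strand, at -18). Plin2 had a CCAAT box at -73 and a nuclear receptor half-site (AGGTCA, read on the other strand) at -218, and Plin3 had a CCAAT box at -75 and GC boxes at -103, -19 and -14, the last 2 overlapping. Searched on both strands, the GC box was in 4 of the 7 members (Fitm2, Plin3, Plin5 and Pnpla2) and in 33.0% of 32536 stretches of the same length, and the CCAAT box was in 4 (Plin2, Plin3, Plin4 and Plin5) against 33.8%. The half-site was in 2 members, Plin2 and Plin5, against 14.0%. The DR1 element of PPAR receptors (AGGTCA repeated after 1 base of any kind, so that it contains the half-site), the TEAD element (GGAATG), the E-box (CACGTG), the MEF2 core (CTA and TAG with 4 bases of any kind between them) and the TATA box (TATAAA) were in 0 of the 7, against 0.0338%, 12.6%, 6.04%, 3.22% and 12.3% of all stretches. Both perilipins that were higher in the cKO and the one that was lower had a CCAAT box, and the Fitm2 stretch held no match to it. Only the spellings given were searched, so near variants were not counted, such as tataag in the printed Plin4 stretch. The matches describe letters in the window and not binding.

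Of the 10 genes Fitm2 had the largest log2 fold change between the genotypes, and its relative Fitm1 a smaller one with overlapping groups. Fitm2 (ENSMUSG00000048486, chr2:163466379-163472629 on the minus strand of GRCm38), the widely expressed member, measured 74.6, 77.3, 86.1, 81.2 and 86.4 CPM in the controls, listed here and below by replicate number. The cKO animals gave 32.8, 33.7, 34.2 and 32.8 CPM. Means are given ± SD over 5 control and 4 cKO libraries throughout. Every cKO library was below every control, and the cKO values lay within 1.5 CPM of each other. The mean was 81.1 ± 5.26 CPM (SD, n = 5) in the controls and 33.4 ± 0.726 CPM (SD, n = 4) in the cKO. This is 2.43-fold lower, with a log2 fold change of -1.28 (SE 0.07). Because this fall was the reason for choosing the genes, it is a description. The genotype differences of all 10 genes are given without p-values, and where one is said to lie past a threshold or not, that describes its size against its SE and is no independent test.

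Fitm2 was lower in both library sets, by -1.17 on the log2 scale among the Rps3a3-low libraries and by -1.35 among the Rps3a3-high. Leaving out each library in turn gave -1.31 to -1.26. An antisense gene, 2310001K24Rik, shares 673 bases of the Fitm2 locus and had a mean of 0.0426 CPM.

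Fitm1 (ENSMUSG00000022215, chr14:55575617-55576954, plus strand), the muscle-enriched relative, was at 100.4, 89.0, 67.8, 58.6 and 71.8 CPM in the controls and 60.8, 76.0, 51.9 and 36.5 CPM in the cKO. The groups overlapped, cKO replicate 2 lying above 3 of the 5 controls. The mean was 77.5 ± 16.9 CPM against 56.3 ± 16.5, a log2 fold change of -0.46 (SE 0.22) that did not pass the threshold of an adjusted p of 0.05. Within each group the Rps3a3-high libraries were the lower ones, and with the library set as a term the difference was -0.69 (SE 0.12) and passed. With a replicate block it was -0.50 and also passed, and these were the 2 of 18 alternatives in which it did. The difference was -0.60 in the low and -0.84 in the high libraries. The antisense gene Gm15932 shares 375 bases of the locus and had a mean of 0.691 CPM.

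Per length of exon, Fitm1 was the more abundant FIT gene in every library, and Fitm2 made up 20.9% ± 4.26 of the summed FIT level in the controls and 13.3% ± 3.54 in the cKO. The sum of both was 100.3 ± 16.4 CPM per kilobase in the controls and 66.4 ± 17.1 in the cKO.

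**Figure D1:**
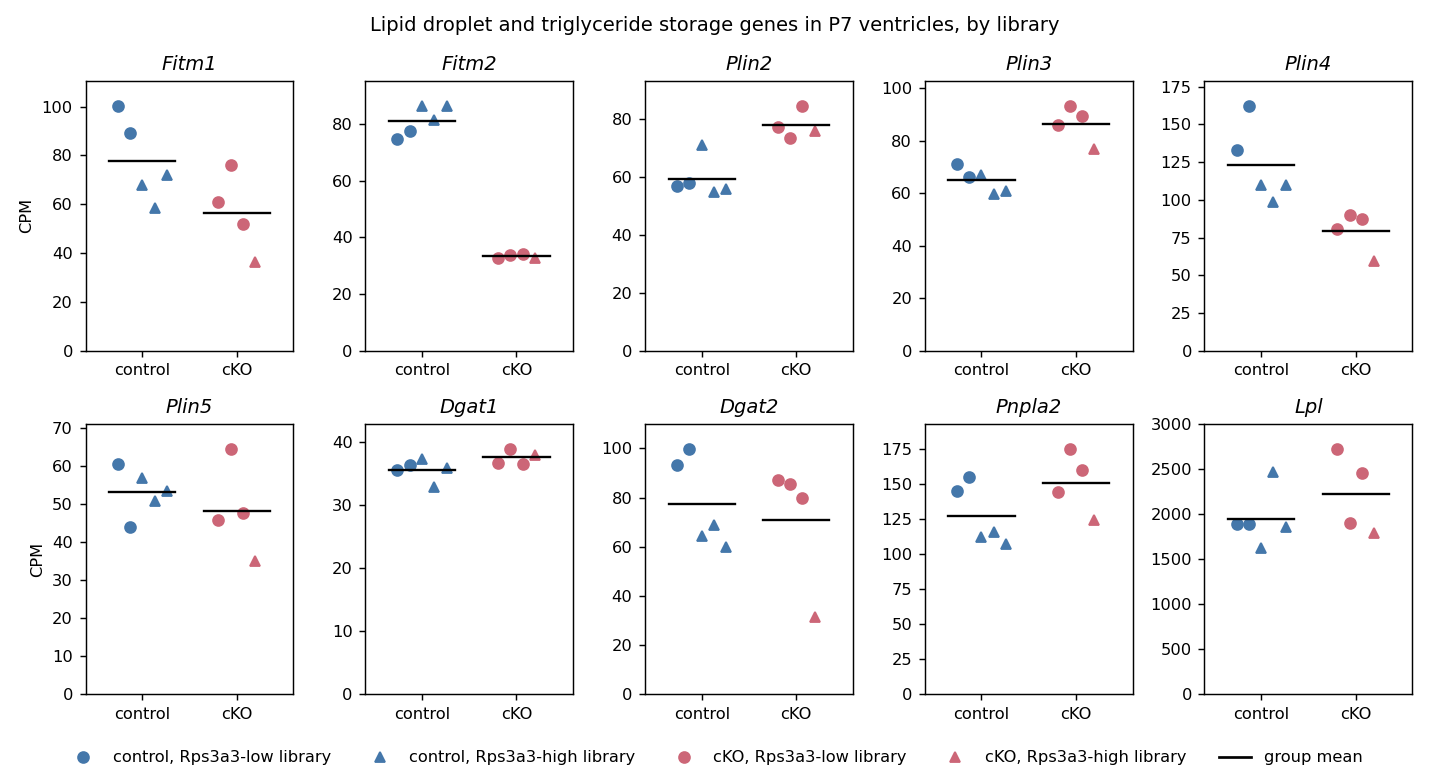
CPM of the 10 genes in each library, with control libraries on the left and cKO libraries on the right of each panel, points shaped by library set and bars at the group means. Fitm2 is the only panel with a gap wider than the spread of both groups put together, 32.8 to 34.2 CPM against 74.6 to 86.4, while Dgat2 shows 1 cKO library at 31.5 CPM far below the other 3.

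The perilipins moved in opposite directions. Plin4, which coats droplets of muscle and fat, was lower in the cKO, Plin2 and Plin3 were higher, and Plin5, the perilipin of oxidative tissue that links droplets to mitochondria, overlapped between the groups.

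Plin4 (ENSMUSG00000002831, chr17:56100591-56109803, minus strand) was at 133, 163, 109.9, 98.8 and 109.9 CPM in the controls and at 80.8, 90.0, 87.1 and 59.7 CPM in the cKO. The groups did not overlap, though the lowest control and the highest cKO library were close. The mean was 123 ± 25.5 CPM against 79.4 ± 13.7, which is 1.55-fold lower (log2 fold change -0.63, SE 0.16). That lies just past the 1.5-fold limit, which it missed without cKO replicate 4 (-0.52) and without control replicate 2 (-0.51), while it stayed past an adjusted p of 0.05 in both. With the library set as a term the difference was -0.80 (SE 0.07), and it was -0.77 in the low and -0.83 in the high libraries. A stretch of 17 bases is shared with Hdgfl2 on the opposite strand, which had a mean of 46.5 CPM.

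Plin2 (ENSMUSG00000028494, chr4:86648386-86670060, minus strand), the general droplet coat of non-adipose cells, was at 56.8, 58.1, 71.2, 55.0 and 55.8 CPM in the controls and 77.3, 73.6, 84.7 and 75.9 CPM in the cKO. Control replicate 3 stood above the other controls and just under the lowest cKO library. The mean rose 1.31-fold, from 59.4 ± 6.70 to 77.9 ± 4.79 CPM (log2 fold change 0.39, SE 0.08). The difference was 0.45 in the low and 0.33 in the high libraries.

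Plin3 (ENSMUSG00000024197, chr17:56277476-56292873, minus strand), which moves from the cytosol onto nascent droplets, was at 71.3, 66.2, 66.9, 59.9 and 61.0 CPM in the controls and 86.2, 93.4, 89.6 and 76.9 CPM in the cKO. No cKO library was as low as a control. The mean rose 1.33-fold, from 65.1 ± 4.67 to 86.5 ± 7.05 CPM (log2 fold change 0.41, SE 0.08), with 0.38 in the low and 0.30 in the high libraries.

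Plin5 (ENSMUSG00000011305, chr17:56111601-56117596, minus strand) was at 60.7, 44.1, 57.0, 51.0 and 53.4 CPM in the controls and 45.9, 64.6, 47.6 and 35.1 CPM in the cKO. Both the highest and the lowest library were cKO. The means were 53.2 ± 6.29 and 48.3 ± 12.2 CPM, a log2 fold change of -0.14 (SE 0.15), and the difference was 0.01 in the low and -0.61 in the high libraries.

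Plin4 and Plin5 lie 1797 bases apart on chromosome 17, and Plin3 lies 159.879 kb beyond Plin5 on the same strand. Of these 3 genes Plin4 was lower in the cKO and Plin3 higher.

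The summed perilipin level overlapped between the groups, at 80.9 ± 5.85 CPM per kilobase in the controls and 81.9 ± 9.75 in the cKO. Plin4 held 26.2% ± 4.48 of the sum in the controls and 16.7% ± 1.20 in the cKO, without overlap. Plin3 went from 21.3% ± 0.363 to 28.0% ± 1.11, also without overlap, and Plin2 from 20.9% ± 2.05 to 27.4% ± 3.53 with overlap. Plin5 held 31.6% ± 3.51 and 27.9% ± 3.96.

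Of the acyltransferases, Dgat1 (ENSMUSG00000022555, chr15:76502015-76511953, minus strand) varied least over the 9 libraries. It was at 35.5, 36.3, 37.3, 32.9 and 35.9 CPM in the controls and 36.7, 38.9, 36.6 and 38.0 CPM in the cKO, with overlap. The means were 35.6 ± 1.64 and 37.6 ± 1.12 CPM and the log2 fold change was 0.08 (SE 0.06).

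Dgat2 (ENSMUSG00000030747, chr7:99153658-99182719, minus strand), the other enzyme of this step, spread most within the groups. It was at 93.2, 99.9, 64.3, 68.9 and 59.7 CPM in the controls and 87.3, 85.3, 80.0 and 31.5 CPM in the cKO. The low value was cKO replicate 4, the 1 cKO library in the Rps3a3-high set. The means were 77.2 ± 18.1 and 71.0 ± 26.6 CPM, a log2 fold change of -0.12 (SE 0.31) that became 0.13 without that library and -0.50 (SE 0.14) with the library set as a term, where it passed an adjusted p of 0.05.

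Pnpla2 (ENSMUSG00000025509, chr7:141455198-141460743, plus strand) was at 145, 155, 112, 116 and 107 CPM in the controls and 144, 175, 160.2 and 124 CPM in the cKO, with overlap. The means were 127 ± 21.5 and 151 ± 21.7 CPM and the log2 fold change was 0.25 (SE 0.13), which was 0.12 with the library set as a term.

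Lpl (ENSMUSG00000015568, chr8:68880491-68907448, plus strand) was the most abundant of the 10 per length of exon. It was at 1895, 1892, 1624, 2467 and 1856 CPM in the controls and 2727, 1899, 2461 and 1795 CPM in the cKO. The groups overlapped, and each held libraries near the top and near the bottom of the whole range. The means were 1947 ± 312 and 2221 ± 447 CPM, a log2 fold change of 0.19 (SE 0.14), with 0.30 in the low and -0.12 in the high libraries.

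Over the 10 genes, 2 were higher (Plin2, Plin3) and 2 lower (Fitm2, Plin4) at an adjusted p under 0.05, a threshold that 16.3% of all tested genes passed, 8.25% upward and 8.03% downward. With the 1.5-fold limit added, 0 were higher and 2 lower (Fitm2, Plin4) by edgeR, against 4.01% and 2.72% of all genes, 6.72% together. DESeq2 called 2, against 7.41% of all genes. The same 4 had no overlap between the groups, 2 upward and 2 downward, against 16.7% of all genes, 8.16% upward and 8.58% downward. The median log2 fold change was -0.02, against 0.01 for all tested genes. With the library set as a term, 6 of the 10 passed (Fitm1 and Dgat2 in addition, both lower), against 19.9% of all genes, and 3 were called (Fitm1, Fitm2 and Plin4), against 7.61%. Since the choice of genes used this comparison, these counts describe the genes and nothing is read from them.

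**Figure D2:**
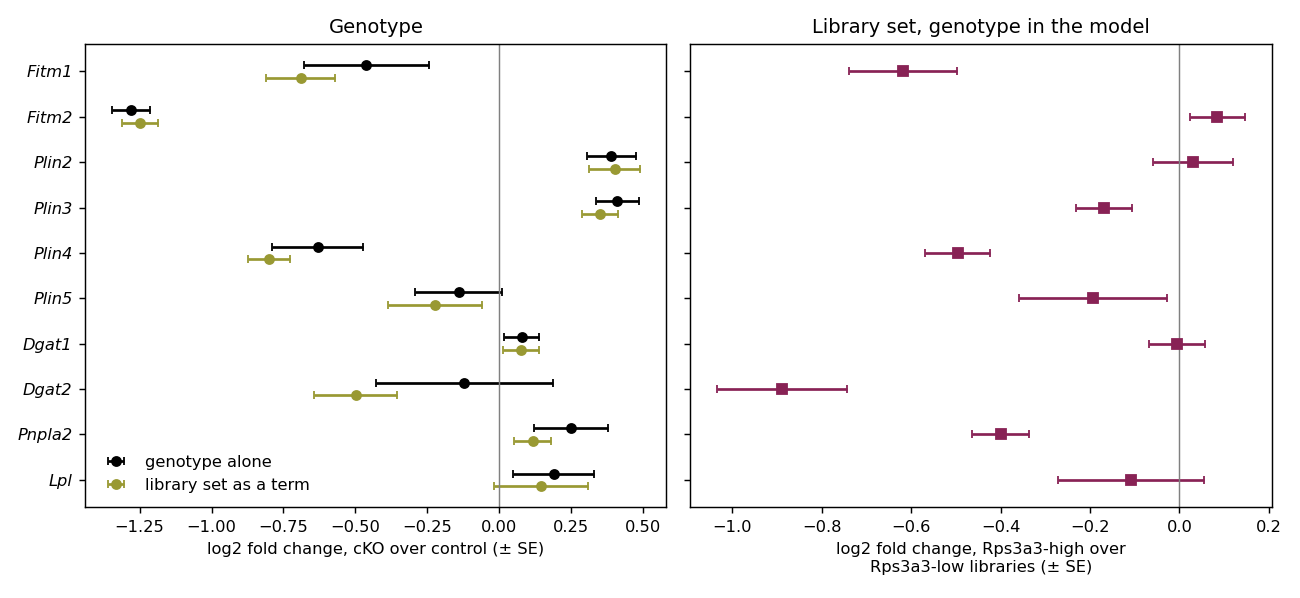
Log2 fold changes with SE bars for the 10 genes: cKO over control, by genotype alone and with the library set as a term (left), and Rps3a3-high over Rps3a3-low libraries with genotype in the model (right). Fitm2 stands at -1.28 on the left and at 0.08 on the right, while Dgat2 has the lowest value on the right, -0.89.

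Compared per kilobase of exon, the only scale on which genes can be ranked, the control levels ran from Lpl (186 CPM per kilobase, range 155 to 235) through Fitm1 (79.8, 60.4 to 103) and Pnpla2 (42.0, 35.4 to 51.3) to Plin5 (25.5, 21.1 to 29.1). Below these came Dgat2 (25.0), Plin4 (21.3), Fitm2 (20.5), Plin3 (17.2) and Plin2 (16.9), and last Dgat1 (11.6, 10.8 to 12.2). Each of Lpl, Fitm1 and Pnpla2 lay clear of the next gene down, as did Plin2 of Dgat1. From Plin5 to Plin2 each gene overlapped the next in the order, so neighbours there are not resolved, although Plin5 lay wholly above both Plin3 and Plin2, and Dgat2 above Plin3. In the cKO, Fitm2 was at 8.41 CPM per kilobase and was the lowest of the 10, below Dgat1 at 12.3.

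**Figure D3:**
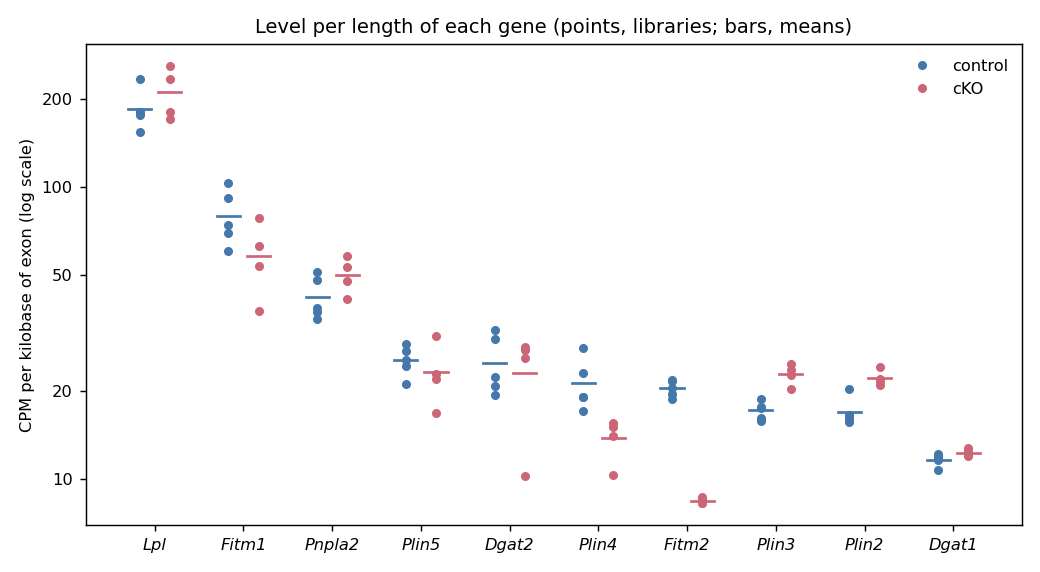
CPM per kilobase of exon on a log axis for the 10 genes, ordered by their control mean, with points for libraries and bars for group means in control and cKO. In the cKO, Fitm2 drops from among the middle genes (20.5) to below Dgat1 (8.41 against 12.3).

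The library sets gave a comparison that the choice of genes had not used, although the sets themselves were found in earlier results of the same data. With genotype in the model, 4 of the 10 genes passed an adjusted p of 0.05, all lower in the Rps3a3-high libraries, against 4.81% of all tested genes, 3.0% lower and 1.81% higher. Dgat2 differed most, with a log2 fold change of -0.89 (SE 0.15, edgeR adjusted p = 0.011). It was at 80.0 to 99.9 CPM in the low and 31.5 to 68.9 CPM in the high libraries, without overlap. Without each library in turn its difference ran from -1.02 to -0.59. Fitm1 differed by -0.62 (SE 0.12, edgeR adjusted p = 0.0197), Plin4 by -0.50 (SE 0.07, edgeR adjusted p = 0.00583) and Pnpla2 by -0.40 (SE 0.06, edgeR adjusted p = 0.00841). For all 4, every Rps3a3-high library was below every Rps3a3-low library of its own genotype. Fitm2 did not pass, at 0.08 (SE 0.06, edgeR adjusted p = 0.421). When 1 library at a time was left out, the Fitm1 call was lost without cKO replicate 4 or control replicate 4, and that of Pnpla2 without control replicate 2. With a replicate block, though no label pairs the replicates, the count of members passing went from 4 to 0. The sets were not distinguished by the labels, and macrophage markers moved with them: their summed level was 73.3 to 96.6 CPM in the low and 47.7 to 60.4 CPM in the high libraries, with 3 of 5 markers passing as lower in the high set. Erythroid markers were at 689.6 to 1067 CPM in the low and 434 to 737 CPM in the high libraries, with 1 of 4 passing as lower in the high set, and 1 of 6 cardiomyocyte markers also passed as lower there. Their part in these differences was not tested.

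Whether the genotype difference itself depended on the library set was tested as an interaction. By edgeR 0 of the 10 genes passed an adjusted p of 0.05, as against 2 of all 15318 genes (0.0131%), and 2 had an unadjusted p under 0.05, against 4.05% of all genes. These were Dgat2 (edgeR unadjusted p = 9.3e-05, adjusted p = 0.177), with genotype differences of -0.20 in the low and -1.02 in the high libraries, and Plin5 (edgeR unadjusted p = 0.0448). Both rest on cKO replicate 4.

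Of the 2 nearest tested genes on each side of Fitm2 on chromosome 2, 0 of 4 passed by edgeR or DESeq2, and 0 had an unadjusted p under 0.05 by edgeR. Jph2, a junctophilin that ties the sarcoplasmic reticulum to the cell membrane, had a log2 fold change of -0.20 (SE 0.09, edgeR adjusted p = 0.17), and Oser1, Ttpal and Serinc3 had 0.03, 0.02 and 0.08. With the library set as a term Jph2 passed as lower, at -0.28 (SE 0.07). Their starts, on their own strands, lie 47.9 to 173 kb from that of Fitm2.

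Genes with the most similar pattern to Fitm2 were ranked by Pearson's r of log2 CPM over the 9 libraries, which mostly reflects the shared difference between the groups. The highest were Gypc (0.994), Usp13 (0.994), Gpd1l (0.994), Rap1gap2 (0.992) and Bace1 (0.991), all lower in the cKO, with log2 fold changes from -0.46 (Gpd1l) to -3.04 (Rap1gap2). After the group means were subtracted, the highest were Wnt5a (0.963), Smug1 (0.953), Gid8 (0.921), Spg20 (0.901) and E2f6 (0.895). Gpd1l resembles the enzyme that makes glycerol 3-phosphate, and Spg20 encodes spartin, a droplet protein that is one of the genes of the wider lists.

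Among the 10 themselves, deviations from the group means ran together for Plin4 and Pnpla2 (r 0.92 over 9 libraries), Fitm1 and Plin3 (0.87), Plin4 and Dgat2 (0.86), and Fitm1 with Dgat2 and Plin4 (0.84 each). They ran against each other for Dgat1 and Lpl (-0.88). These libraries share the library sets, so the correlations carry no p-value.

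Other genes of triglyceride storage and supply were taken from 6 lists by function. Of 106 listed entries 88 were tested, and an adjusted p under 0.05 was reached by 17 genes upward and 6 downward, of which 7 and 1 also passed the 1.5-fold limit. That compares with 8.25% and 8.03% of all genes for the first threshold and 4.01% and 2.72% for the second, and the 15 that passed without being called with 9.55%. These lists too were drawn up with earlier results of the data known, so the counts describe the lists and are no independent evidence about them. The median log2 fold change was 0.08, against 0.01 for all genes.

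The droplet protein list held most of the called genes, with 6 of its 20 tested genes higher and 2 lower, and 4 and 1 of them called. Cideb, a CIDE protein known for droplet fusion and lipoprotein lipidation, rose most. It was at 2.17, 2.23, 2.44, 1.42 and 2.33 CPM in the controls and 7.96, 9.62, 8.55 and 10.7 CPM in the cKO, a log2 fold change of 2.12 (SE 0.17, edgeR adjusted p = 6e-06). Cidea, which merges droplets in brown fat, was at 26.0 to 32.8 CPM in the controls and 49.0 to 58.3 CPM in the cKO, a log2 fold change of 0.90 (SE 0.09, edgeR adjusted p = 3.7e-05). Hsd17b11, a droplet-bound dehydrogenase, rose from 31.9 ± 3.83 to 58.0 ± 8.97 CPM (log2 fold change 0.86, SE 0.11, edgeR adjusted p = 0.000371).

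The called gene that fell was Tmem159, which encodes the seipin partner LDAF1 of droplet formation. It was at 14.2, 16.2, 15.0, 16.2 and 16.9 CPM in the controls and 7.47, 9.62, 9.59 and 9.32 CPM in the cKO, a log2 fold change of -0.80 (SE 0.10, edgeR adjusted p = 0.000278). Seipin itself (Bscl2) was at 24.5 ± 2.02 and 28.5 ± 3.21 CPM and did not pass (log2 fold change 0.22, SE 0.09, edgeR adjusted p = 0.128). Mettl7a1, a droplet-associated methyltransferase-like protein named after its values were seen, was the remaining called gene of the list, with a log2 fold change of 0.80 (SE 0.09, edgeR adjusted p = 0.000103). Plin1, the perilipin of adipocytes, was not tested, with means of 0.0295 CPM in the controls and 0.0507 in the cKO.

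Around lipoprotein lipase, 3 of 12 tested genes were higher and 1 lower, and 2 were called. Mttp, which loads lipid onto apolipoprotein B, rose from 13.6 ± 3.07 to 24.6 ± 5.82 CPM (log2 fold change 0.85, SE 0.19, edgeR adjusted p = 0.00929). The LPL anchor Gpihbp1 (0.02, SE 0.08) and the LPL maturation factor Lmf1 (-0.03, SE 0.13) did not pass. The LPL inhibitor Angptl4 was at 26.3, 18.4, 67.5, 46.0 and 45.1 CPM in the controls and 69.8, 50.9, 47.3 and 55.3 CPM in the cKO. Its 2 Rps3a3-low controls were the lowest libraries, and its log2 fold change of 0.46 (SE 0.35, edgeR adjusted p = 0.434) was 1.33 and passed in the Rps3a3-low libraries alone.

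Triglyceride synthesis genes numbered 13 tested, with 2 higher, 2 lower and, by edgeR and by DESeq2, 0 called. An unadjusted p under 0.05 was reached by 5 of them, against 29.7% of all genes, and 5 passed by DESeq2, against 20.5%. Gpam, the mitochondrial enzyme that starts glycerolipid synthesis, was at 69.5 to 106 CPM in the controls and 107 to 121 CPM in the cKO (log2 fold change 0.39, SE 0.12, edgeR adjusted p = 0.0469). It passed in 10 of 18 alternatives, with adjusted p from 0.00483 to 0.115, and was lost without any one of cKO replicates 1 to 4 or control replicates 1 to 3. Lpin1, the phosphatidate phosphatase of the heart, was at 83.3 ± 7.32 and 67.3 ± 9.79 CPM and missed the threshold (-0.31, SE 0.10, edgeR adjusted p = 0.0505), which it passed in 7 of 18 alternatives.

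Among lipolysis genes 1 of 9 tested was higher (Lipa, the lysosomal acid lipase, log2 fold change 0.31, named after its values were seen) and 0 were called by edgeR or DESeq2, with 2 at an unadjusted p under 0.05. Of the partners of Pnpla2, its activator Abhd5 had a log2 fold change of -0.02 (SE 0.06), and its inhibitors G0s2 and Hilpda had -0.01 (SE 0.15) and 0.20 (SE 0.12), and none of these passed. The lipases that follow it, Lipe (0.19, SE 0.10) and Mgll (0.12, SE 0.07), did not pass either.

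Of 15 fatty acid and lipid synthesis genes 2 were higher and 0 were called by edgeR or DESeq2, with 6 at an unadjusted p under 0.05. Of 19 PPAR-responsive genes 3 were higher and 1 lower, and 1 was called: Ucp2, a mitochondrial carrier, at 205 to 281 CPM in the controls and 276 to 446 CPM in the cKO (log2 fold change 0.61, SE 0.13, edgeR adjusted p = 0.00768). Its groups overlapped, and its call was lost on leaving out cKO replicate 4 (0.49), cKO replicate 2 (0.58) or control replicate 2 (0.56). Using the Rps3a3-low libraries alone (0.57) or a replicate block (0.59) also lost it.

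**Figure D4:**
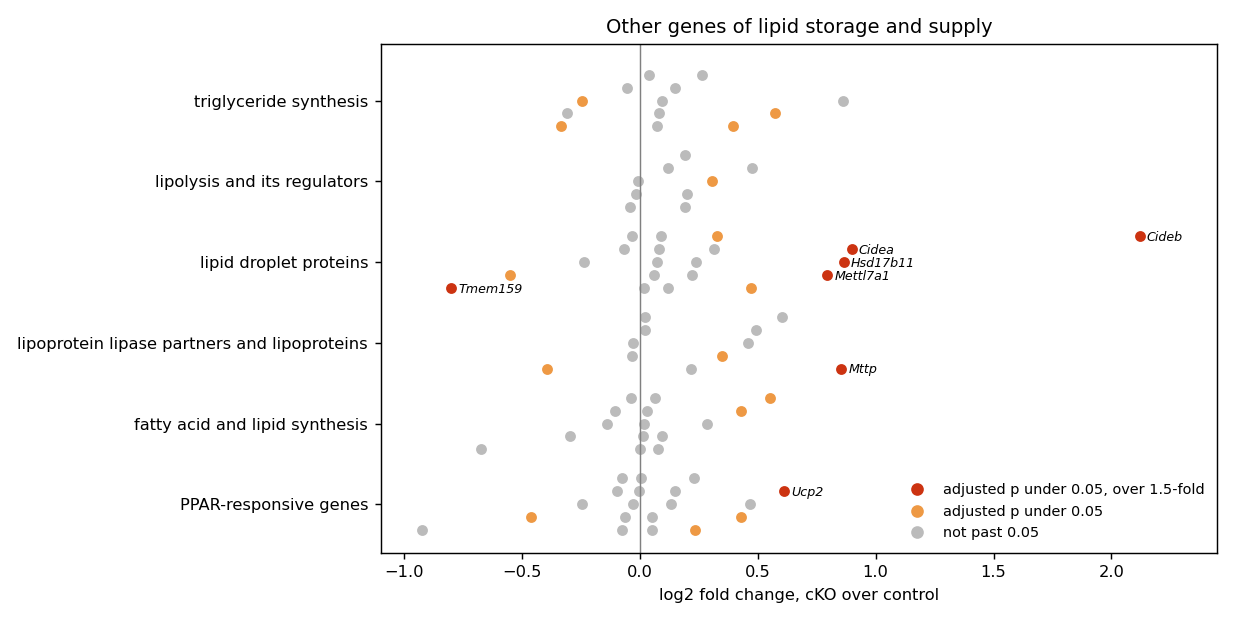
Log2 fold changes, cKO over control, of tested genes of the 6 wider lists, one point per gene and one row per list, coloured by whether an adjusted p of 0.05 and the 1.5-fold limit were passed. The called genes shown are named: Cideb is farthest to the right at 2.12 and Tmem159 is the 1 called gene to the left at -0.80.

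Adipocytes could carry droplet genes into a ventricle sample, so their markers were read in each library. Of 9 adipocyte markers 7 (Adipoq, Plin1, Cidec, Lep, Retn, Cfd and Adig) were under 1 CPM throughout, with Lep at 0 in every library, so that the summed level of 26.0 to 33.4 CPM in the controls and 49.3 to 59.8 CPM in the cKO was almost all Cidea. Without Cidea the sum was 0 to 0.97 CPM in the controls and 0.0795 to 5.996 CPM in the cKO, the highest in cKO replicate 3, where Ucp1 was at 4.92 CPM. Cardiomyocyte markers summed to 32950.1 to 39489.95 CPM in the controls and 29381 to 34492 CPM in the cKO, with 1 of 6 passing as lower by edgeR, 3 passing by DESeq2 and 4 at an unadjusted p under 0.05 by edgeR. Fibroblast markers were at 2797 to 3539 and 3638 to 4324 CPM without overlap, with 3 of 6 passing as higher. Endothelial markers were at 1336 to 1439.9 and 1297 to 1399 CPM, with 1 of 5 passing as lower, and atrial markers at 60.5 to 137 and 127 to 190.03 CPM, with 1 of 3 passing as higher. Macrophage, mural, erythroid and skeletal muscle markers had 0 of 5, 0 of 4, 0 of 4 and 0 of 3 tested genes passing by edgeR, with 0, 1, 1 and 3 at an unadjusted p under 0.05 and 0, 0, 1 and 1 passing by DESeq2. The part of fibroblast or atrial content in the differences between the genotypes was not tested.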

How the data were processed

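Poly(A)-selected RNA of 9 ventricle samples was sequenced by the authors with a stranded mRNA kit. According to the submitters' processing notes, STAR 2.4.2a and HTSeq 0.6.1 were used with the build mm10. Which annotation was used, and whether counting used strand, is not given in the sources used here, so genes that overlap on opposite strands are uncertain. The authors deposited raw counts per gene, not normalized, with a column for each library and 0 columns of other samples. The study's text gives different numbers of controls in different places, and every library labelled as a control entered the fits.

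Symbols and coordinates came from GENCODE M21 on GRCm38, where 36345 identifiers matched and 1948 did not. Genes with enough counts (filterByExpr, minimum count 10) were scaled by TMM and fitted with edgeR 4.0.16 in R 4.3.3 (quasi-likelihood, robust, genotype alone). Tests were two-sided, with Benjamini-Hochberg adjustment over all 15318 tested genes. A gene passed at an adjusted p under 0.05 and was called when it also changed by over 1.5-fold, the thresholds of the study, which used DESeq2. The SE is the log2 fold change divided by the square root of its F statistic. CPM are counts scaled to a TMM-corrected total of 1e6, and CPM per kilobase divides them by the union of annotated exons. Differences within a library set are differences of mean log2(CPM + 0.5) and have no test. The library set is Rps3a3 above or below 10 CPM. Replicates carry no label of litter or culture beyond being separate samples, so p-values measure the spread between these samples.

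The members and the lists of other genes were chosen with earlier results of these data known. Named were all members, up to 4 called genes per list by size of change, fixed partners of the members, the 2 nearest tested genes on each side of Fitm2 and the 5 genes of at least 5 CPM most like it. The least different pair of libraries within a group still had a mean chi-square of 11.1 per gene, where 1 is sampling noise, so none was counted as a duplicate. Alternatives were DESeq2 1.42.0, RLE and upper-quartile scaling, other filters, the library set or Xist as a term, the Rps3a3-low libraries alone, a replicate block and leaving out each library. The fits were tested on simulated data. One called gene of the wider lists is counted but not reported here by name or value, and is left out of the plot of those lists.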

Additional observations from a re-analysis of the deposited data

Results flagged for a closer look

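Within each group of 4 or 5 libraries, the highest and lowest value of each named gene was compared with the others by Dixon's ratio. Of 56 groups, 6 held a library set apart in this way, where chance alone marks about 1 in 20. Plin2 was at 71.2 CPM in control replicate 3 and at 55.0 to 58.1 CPM in the other controls. Dgat2 was at 31.5 CPM in cKO replicate 4 and at 80.0 to 87.3 CPM in the other cKO libraries, and this is the 1 cKO library of the Rps3a3-high set. Cideb was at 1.42 CPM in control replicate 4, against 2.17 to 2.44 CPM in the other controls. Tmem159 was at 7.47 CPM in cKO replicate 1, against 9.32 to 9.62 CPM. G0s2 was at 18.3 CPM in cKO replicate 2, against 13.4 to 13.8 CPM. Lpin1 was at 81.8 CPM in cKO replicate 3, against 61.1 to 64.3 CPM. For Plin2, Cideb and Tmem159 the library set apart did not reach the values of the other genotype.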

How the results depend on the processing

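Over the 18 alternatives to the genotype comparison the log2 fold change ran from -1.31 to -1.18 for Fitm2, from -0.80 to -0.51 for Plin4, from 0.35 to 0.47 for Plin2 and from 0.35 to 0.46 for Plin3. These differences chose the genes or come from the same contrast, so the ranges are descriptions. The count of called members, 2, was 1 to 2 without each library in turn and 3 with the library set as a term. Same-numbered replicates were not shown to be paired: the correlations of their deviations were 0.0227, 0.0361, 0.0107 and 0.232, and no label ties them. With a replicate block the count of members passing for the library set went from 4 to 0 by edgeR, so that Fitm1, Plin4, Dgat2 and Pnpla2 all lost that call, with 2 members at an unadjusted p under 0.05. The Ucp2 call by genotype was lost too (0.59), and the count of called members by genotype stayed at 2. Without a filter on low counts 1 member, Dgat2, passed for the interaction in place of 0. The count of called genes in the wider lists, 8, stayed within 1.5 times in every alternative. The causes of these changes were not tested.

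Direction changed for the following log2 differences. By genotype, Plin5 was 0.0100 and Gpihbp1 -0.065 in the Rps3a3-low libraries alone. Gpihbp1 was -0.047 with the library set as a term and -0.00076 with a replicate block. G0s2 was 0.0053 with Xist as a covariate, 0.0067 with a replicate block and 0.0065 with upper-quartile scaling. Without each library in turn, Dgat2 ran from -0.24 to 0.13, Abhd5 from -0.042 to 0.022, G0s2 from -0.13 to 0.11, Gpihbp1 from -0.016 to 0.064 and Lmf1 from -0.11 to 0.054. By library set, Plin2 was -0.00074 with Xist as a covariate, Plin5 and Dgat1 were 0.13 and 0.15 with a replicate block, and Dgat1 was 5.2e-05 with no filter and 0.0030 with upper-quartile scaling. Without each library in turn these differences ran from -0.051 to 0.079 for Plin2, -0.38 to 0.038 for Plin5, -0.026 to 0.024 for Dgat1 and -0.24 to 0.066 for Lpl. Members had at least 1045 counts in every library. The counting error expected from the mean count was below the spread between libraries for each member in each group, except Fitm2 in the cKO, where it was 2.87% against a spread of 2.17%, and it was close for Dgat1 in the cKO, 2.70% against 2.97%.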

Other observations

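With genotype in the model, 6 of the 88 tested genes of the wider lists (6.82%) passed an edgeR adjusted p of 0.05 for the library set, against 4.81% of all genes, a share near that background. Of these, 5 were higher in the Rps3a3-high libraries and 1 lower, and all are named after their values were seen. Acsl3, an acyl-CoA synthetase of nascent droplets, was at 24.3 to 28.0 CPM in the low and 40.1 to 48.3 CPM in the high libraries (log2 fold change 0.74, SE 0.08, edgeR adjusted p = 0.00114). Cpt1a, which passes fatty acids into mitochondria, was at 105 to 145 and 148 to 169 CPM, also without overlap (0.34, SE 0.06, edgeR adjusted p = 0.0106). Scd2, a desaturase, was higher by 0.42 (SE 0.07), Soat1, which makes cholesteryl esters, by 0.37 (SE 0.08) and Acsl4 by 0.29 (SE 0.08), while Mlxipl, a carbohydrate-responsive transcription factor, was lower by 0.40 (SE 0.09).

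By genotype, 15 of the 88 tested genes of the wider lists passed without being called, against 9.55% of all genes. The lists were drawn up with earlier results of these data known. Given here are 3 of the 15, picked after their values were seen. Fabp3, the fatty acid binding protein of heart muscle, rose from 1569 to 2112 CPM (log2 fold change 0.43, SE 0.06, edgeR adjusted p = 0.00082). Vldlr, a lipoprotein receptor, fell from 432 to 329 CPM (-0.39, SE 0.08, edgeR adjusted p = 0.00382). Acadm, a dehydrogenase of beta-oxidation, fell from 809.5 to 587 CPM (-0.46, SE 0.07, edgeR adjusted p = 0.00131).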
